A study of Mus musculus with 7 samples.

Results

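The 10 antiviral effector genes described here belong to the type I interferon (IFN) response and were followed through αPD-L1-resistant mouse breast tumors. They are Ifit1, Ifit2, Ifit3 and Ifit3b (the IFIT genes), Isg15, Usp18 and Herc6 (the ISG15 system), Rsad2 and Cmpk2 (viperin and its neighbor), and Ifi44. They were taken by symbol, and all 10 were found among the 53465 genes of the expression table. The EMT6 line comes from a mammary carcinoma of the mouse and was grown here in the mammary fat pad of female BALB/c mice that were 6 to 8 weeks old at implantation. EMT6-P tumors (n = 3) are parental tumors under isotype control antibody, and EMT6-PTR tumors (n = 3) are a resistant variant, which the labels call PDR, under antibody to PD-L1. Both antibodies were given at 250 μg per mouse every 3 days until the institutional endpoint. One metastasis of the resistant variant under αPD-L1 was also sequenced, without a replicate. The resistant variant was selected from tumors that had regrown under treatment, and no resistant tumor without αPD-L1 was among the samples used here, so that the selected cells and the ongoing antibody cannot be told apart. The labels do not say whether the sequenced EMT6-PTR tumors were the originally treated tumors or grew from reimplanted cells of the variant. They also do not say that each library came from a separate mouse, so that p-values measure only the spread between these libraries. The paper's figure legend gives n = 3 for these data and treats replicates as technical where nothing else is stated. Each primary library is called a tumor below.

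Type I IFNs bind the IFNAR1 and IFNAR2 receptor chains, whose kinases JAK1 and TYK2 activate the transcription factor complex ISGF3, of which STAT2 and IRF9 are subunits. ISGF3 binds the interferon-stimulated response element (ISRE) in front of genes such as those described here. In tumors the same genes report IFN made by cancer, stromal or immune cells, and their chronic low-level expression in carcinoma cells is known from several tumor types. IFIT proteins bind foreign RNA and hold back its translation. ISG15 is a ubiquitin-like protein that is joined to other proteins and also secreted, HERC6 is the main ligase for this step in the mouse, and USP18 removes ISG15 and dampens the receptor. Viperin, the product of Rsad2, turns CTP into a chain terminator of viral RNA synthesis, and CMPK2 is a mitochondrial nucleotide kinase. IFI44 is an IFN-induced protein of less settled function.

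The sequences in front of these genes come first, searched for the element through which ISGF3 acts. Promoter windows of 300 bases (250 before and 50 after each RefSeq start, build GRCm38.p6) were on hand for 9 of the 10 genes, the exception being Usp18, with 2 starts for Ifit2. The ISRE core was searched as the word GAAA 2 times with 2 bases between, on either strand, so that on the opposite strand it reads as TTTC 2 times. It was present in 1131 of 32851 promoter windows (3.44%) and in windows of 5 of the 9 genes: Isg15, Rsad2, Ifit3, Ifit3b and Ifit1. At least 2 cores, counting overlaps, were present in 0.225% of all windows and in those of Isg15 (3 overlapping cores), Ifit3, Ifit3b and Ifit1. The stretches holding the cores are given below 5′ to 3′ on the strand of the gene, with the cores in capitals.
Isg15 (chr4:156200865-156200906, minus strand): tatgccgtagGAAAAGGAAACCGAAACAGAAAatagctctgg
Rsad2 (chr12:26456553-26456582, minus strand): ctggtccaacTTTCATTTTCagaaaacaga
Ifit1 (chr19:34640775-34640823, plus strand): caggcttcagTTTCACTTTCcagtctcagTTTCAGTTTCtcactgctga
Ifit3 (chr19:34583363-34583426, plus strand): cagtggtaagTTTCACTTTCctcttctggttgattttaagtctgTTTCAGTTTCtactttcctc
Ifit3b (chr19:34607759-34607822, plus strand): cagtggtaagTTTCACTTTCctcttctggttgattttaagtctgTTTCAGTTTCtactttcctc
The stretches of Ifit3 and Ifit3b were identical over all 64 bases and lay 32 bases farther from the start in Ifit3b. These exact letters were not in the windows of Ifit2, Herc6, Cmpk2 and Ifi44. The GAS word, TTC and GAA with 3 bases between, an element of the IFN-γ response, was in 1 of the 9 genes (Ifit2) and in 8.30% of all windows. Of the 38 other type I IFN-stimulated genes considered further on, 27 had a window and 14 of these held the ISRE core.

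The 4 IFIT genes lie in 1 cluster on chromosome 19 (GENCODE M21, build GRCm38), all on the plus strand, over 99316 bp: Ifit2 at chr19:34550694-34576419, Ifit3 at chr19:34583531-34588731, Ifit3b at chr19:34607970-34613401 and Ifit1 at chr19:34640871-34650009. Rsad2 (chr12:26442746-26456452, minus strand) and Cmpk2 (chr12:26469204-26479837, plus strand) point away from each other, with their starts 12752 bp apart. Ifi44 (chr3:151730922-151749960, minus strand) lies 8777 bp from its relative Ifi44l. Isg15 is at chr4:156199424-156200818 (minus strand), Usp18 at chr6:121245906-121270917 and Herc6 at chr6:57581000-57664632, both on the plus strand. The transcripts of Ifit3 and Ifit3b were 97.8% identical over 1700 aligned positions, and 51.2% of the 50-base words of Ifit3 also occurred in Ifit3b. Their counts were divided by estimation and are uncertain one against the other. Ifit1 shared 7.06% of its 50-base words with Ifit1bl2 and none with Ifit2 or Ifit3.

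Total estimated counts per library ran from 20430110 to 25213472. The 10 genes had between 60 and 2607 estimated counts in each library, so that none was near the limit of detection. Expression is given as CPM, that is counts scaled to a common library size, on the upper-quartile scale. One gene, CT010467.1, took 13.8% of the counts of EMT6-PTR replicate 2 and 0.433% to 1.35% of those of the other libraries. In EMT6-PTR replicate 3, the summed level of 5 carcinoma epithelial markers was 610 CPM against 2373 to 2701 CPM in the other primary tumors, with Krt8 at 505 CPM against 1685 to 1898 CPM. Krt18, Krt14 and Cdh1 were also lowest there, but Epcam, at 8.83 CPM, lay inside the 4.79 to 10.6 CPM of the other primary tumors. The metastasis, which is labelled breast tumor tissue, held 4 of 4 lung markers at a summed 7322 CPM against at most 1.27 CPM in any primary tumor. In bulk tissue, fewer cells of a type and less RNA per cell cannot be told apart.

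None of the 10 effector genes passed the test between EMT6-PTR and EMT6-P, although all 10 fold changes were above 0. Among the 6 primary tumors, EMT6-PTR replicate 2 ranked highest for all 10 genes, and the other EMT6-PTR tumors lay mostly within the EMT6-P range. The median log2 fold change of the 10 genes was 0.68, and without EMT6-PTR replicate 2 it was -0.11, with 3 genes above 0 and 7 below. Over all 15645 genes tested, the median log2 fold change was 0.03, or 0.02 without that tumor, and 52.3% of genes were above 0. The adjusted p of the 10 genes ran from 0.437 (Ifi44) to 0.940 (Isg15) in the quasi-likelihood test of edgeR, adjusted by Benjamini and Hochberg's method. That test called 0 of all genes (0%), with a smallest adjusted p of 0.421, while 1786 genes had an unadjusted p under 0.05, of which 914 were higher in EMT6-PTR (5.84%). Of the 10 genes, 1 (Ifi44, unadjusted p = 0.0471 in edgeR's test) was among those 914. DESeq2 called 281 of the 13694 genes it gave an adjusted p (2.05%), none of them among the 10, and limma-voom called 0 genes. The values of the 2 groups overlapped for all 10 genes, where over all genes they did not overlap, in either direction, for 21.3%.

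**Figure D1:**
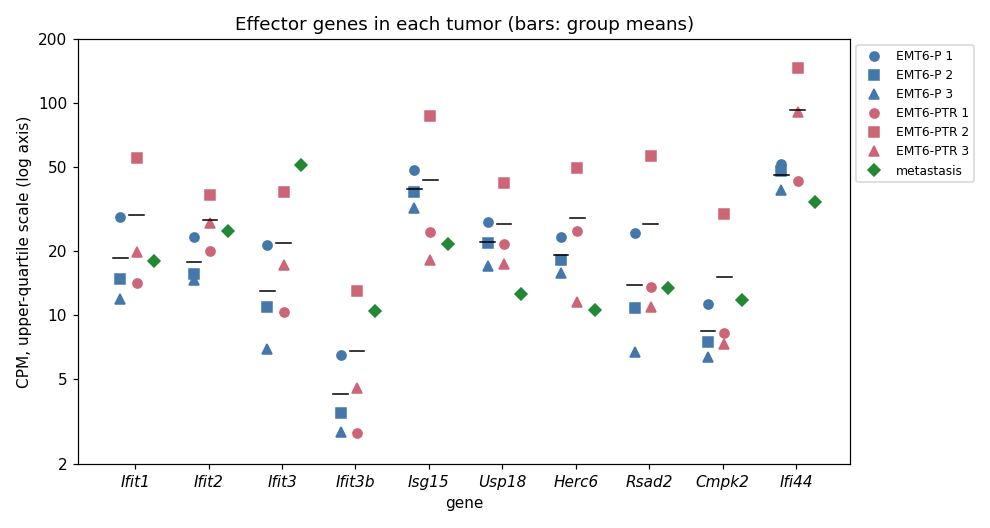
Level of each effector gene in each library, as CPM on the upper-quartile scale (log axis), with EMT6-P tumors in blue, EMT6-PTR tumors in red and the metastasis in green. Black bars are group means (n = 3). EMT6-PTR replicate 2 (red square) is the highest primary tumor for all 10 genes, and the metastasis is highest of all for Ifit3.

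Ifit1, which binds RNA with an incomplete cap, stood at 29.0, 14.8 and 11.9 CPM in EMT6-P replicates 1 to 3 and at 14.3, 55.2 and 19.8 CPM in EMT6-PTR replicates 1 to 3. EMT6-PTR replicate 2 was 1.91-fold above the highest EMT6-P tumor, while the other EMT6-PTR tumors fell inside the EMT6-P range. Its log2 fold change was 0.68 (SE 0.58, adjusted p = 0.639), and -0.12 (SE 0.43) without EMT6-PTR replicate 2. Ifit2, which acts beside IFIT1 and also limits translation, had the smallest ratio of highest to lowest among the EMT6-PTR tumors. It was at 23.3, 15.7 and 14.6 CPM in EMT6-P and at 20.0, 36.8 and 27.1 CPM in EMT6-PTR. EMT6-PTR replicates 2 and 3 lay above all EMT6-P tumors, and replicate 1 lay between EMT6-P replicates 1 and 2. Its log2 fold change was 0.65 (SE 0.29, adjusted p = 0.449), and 0.40 (SE 0.28) without EMT6-PTR replicate 2.

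Ifit3, which binds and stabilizes IFIT1 in humans, was at 21.4, 10.9 and 6.93 CPM in EMT6-P and at 10.3, 38.0 and 17.3 CPM in EMT6-PTR. Its near-copy Ifit3b was at 6.48, 3.46 and 2.83 CPM in EMT6-P and at 2.79, 13.1 and 4.53 CPM in EMT6-PTR. Both were highest in EMT6-PTR replicate 2, and their other EMT6-PTR values lay inside the EMT6-P range apart from Ifit3b in replicate 1, just under it. The log2 fold change was 0.74 for Ifit3 (SE 0.58, adjusted p = 0.611) and 0.67 for Ifit3b (SE 0.63, adjusted p = 0.669). Without EMT6-PTR replicate 2 these were 0.08 (SE 0.52) and -0.21 (SE 0.48). Summing both genes, an alternative added after the data were seen, gave a log2 fold change of 0.72 (adjusted p = 0.619). The ratio of Ifit3b to Ifit3 in CPM was between 0.262 and 0.408 in the 6 primary tumors.

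Isg15 itself was at 48.2, 38.1 and 32.1 CPM in EMT6-P and at 24.6, 86.8 and 18.2 CPM in EMT6-PTR. EMT6-PTR replicate 2 was above and replicates 1 and 3 were below every EMT6-P tumor. The group means, 39.5 ± 8.18 CPM in EMT6-P and 43.2 ± 37.9 CPM in EMT6-PTR (SD, n = 3 each), lay close together, with a log2 fold change of 0.13 (SE 0.58, adjusted p = 0.940). Without EMT6-PTR replicate 2 the log2 fold change was -0.88 (SE 0.25, adjusted p = 0.484), and with limma-voom on all 6 tumors it was -0.25. Usp18, the protease that takes ISG15 off its targets, was at 27.6, 22.0 and 17.0 CPM in EMT6-P and at 21.6, 41.8 and 17.5 CPM in EMT6-PTR. EMT6-PTR replicates 1 and 3 were inside the EMT6-P range, and the log2 fold change was 0.28 (SE 0.36, adjusted p = 0.756) or -0.18 (SE 0.26) without replicate 2. Herc6, the ISG15 ligase, was at 23.3, 18.3 and 15.9 CPM in EMT6-P and at 24.9, 49.3 and 11.6 CPM in EMT6-PTR. It was the only one of the 10 genes for which EMT6-PTR replicate 1 lay above all EMT6-P tumors, and replicate 3 lay below them. Its log2 fold change was 0.57 (SE 0.49, adjusted p = 0.641), and -0.07 (SE 0.37) without replicate 2.

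Rsad2, which encodes viperin, had the widest range. It was at 24.3, 10.8 and 6.75 CPM in EMT6-P, a 3.61-fold span among control tumors, and at 13.6, 56.0 and 10.9 CPM in EMT6-PTR. EMT6-PTR replicate 2 was 4.02-fold above the EMT6-P mean, the largest such excess among the 10 genes. The other 2 EMT6-PTR values lay between EMT6-P replicates 1 and 2. Its log2 fold change of 0.94 carried the largest standard error of the 10, 0.75 (adjusted p = 0.616), and became -0.19 (SE 0.56) without that tumor. Cmpk2 was at 11.4, 7.48 and 6.37 CPM in EMT6-P and at 8.25, 30.0 and 7.35 CPM in EMT6-PTR. It showed the same order of tumors in EMT6-P and the same outlying EMT6-PTR tumor, with a log2 fold change of 0.85 (SE 0.59, adjusted p = 0.574) or -0.10 (SE 0.33) without it. The ratio of Rsad2 to Cmpk2 in CPM was not constant and ran from 1.06 in EMT6-P replicate 3 to 2.14 in EMT6-P replicate 1.

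Ifi44 was the gene with the tightest EMT6-P values and the largest fold change. It was at 51.4, 47.6 and 38.7 CPM in EMT6-P and at 42.9, 145 and 90.4 CPM in EMT6-PTR. EMT6-PTR replicates 2 and 3 lay above all EMT6-P tumors, and replicate 1 lay inside their range. Its mean was 45.9 ± 6.49 CPM in EMT6-P and 92.8 ± 51.2 CPM in EMT6-PTR (SD, n = 3 each). The log2 fold change was 1.02 (SE 0.42, adjusted p = 0.437), and 0.54 (SE 0.34, adjusted p = 0.537) without EMT6-PTR replicate 2. It was the only one of the 10 genes at least 2-fold higher, as were 6.27% of all genes tested. Ifi44, Ifit2 and Ifit3 were the 3 genes whose fold change stayed above 0 without EMT6-PTR replicate 2.

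**Figure D2:**
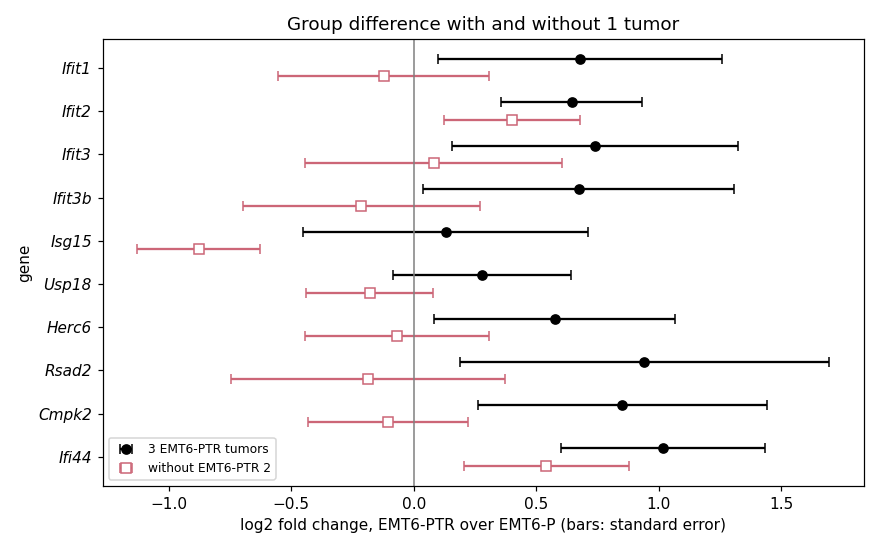
Log2 fold change of EMT6-PTR over EMT6-P from edgeR's quasi-likelihood fit, with its standard error, for all 6 primary tumors (black circles) and without EMT6-PTR replicate 2 (open red squares). All 10 black circles lie right of 0, and 7 of the 10 open squares lie left of it, with Isg15 farthest left at -0.88.

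The EMT6-PTR tumors were then compared one by one with the EMT6-P tumors. In EMT6-PTR replicate 2 all 10 lay above every EMT6-P tumor, where 33.8% of all genes did, and all 10 were the highest of the 6 primary tumors, where 16% of all genes were. The excess over the highest EMT6-P tumor ran from 1.51-fold for Usp18 to 2.83-fold for Ifi44. The median difference of the 10 genes from the EMT6-P mean was 1.67 on the log2 scale in replicate 2, -0.05 in replicate 1 and 0.02 in replicate 3. Over all genes tested the medians were -0.02, 0.00 and -0.03 in the same order. In EMT6-PTR replicate 1, 1 gene (Herc6) lay above all EMT6-P tumors and 2 (Ifit3b and Isg15) below, against 32.6% and 32.5% of all genes. In EMT6-PTR replicate 3, 2 genes (Ifit2 and Ifi44) lay above and 2 (Isg15 and Herc6) below, against 39.8% and 42.7% of all genes. Without EMT6-P replicate 1 as a control, 4 genes were above in EMT6-PTR replicate 1 and 6 in replicate 3, while all 10 remained above in replicate 2.

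The 10 genes also moved together among the EMT6-P tumors. Replicate 1 was the highest and replicate 3 the lowest for all 10 genes, an order that 15.9% of all genes showed, and the span between them was 1.33-fold for Ifi44 to 3.61-fold for Rsad2. The SD of log2 CPM among EMT6-P tumors was 0.39 in the median of the 10 genes and 0.15 in the median of all genes tested. Among EMT6-PTR tumors these medians were 1.03 and 0.39. Within EMT6-P the smallest SDs were those of Ifi44 (0.21), Herc6 (0.28) and Isg15 (0.30), and the largest was that of Rsad2 (0.93).

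**Figure D3:**
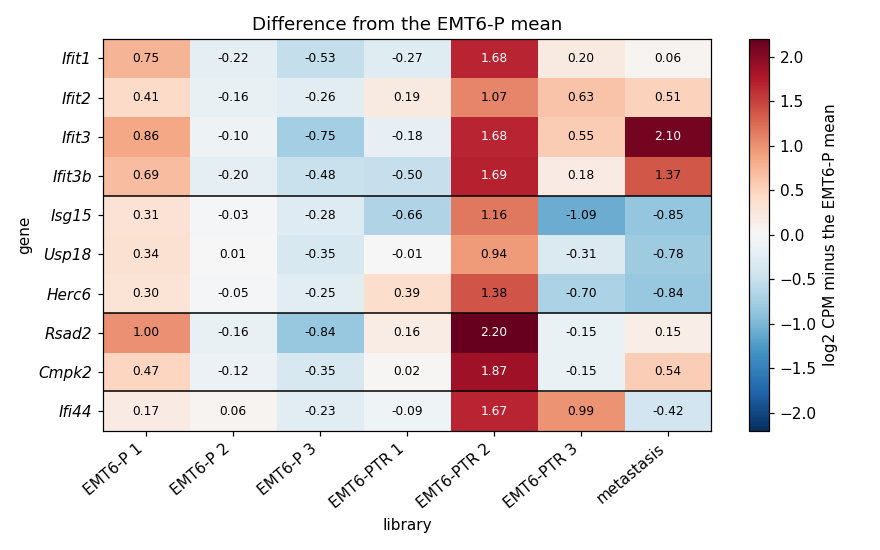
Log2 CPM of each gene minus its mean over the 3 EMT6-P tumors, in each of the 7 libraries, from blue (lower) to red (higher), with the values printed. Black lines part the IFIT genes, the ISG15 system, Rsad2 with Cmpk2, and Ifi44. The column of EMT6-PTR replicate 2 is above 0.9 for every gene, and in the metastasis the IFIT genes are above 0 and the ISG15 system is below it.

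The means of the IFIT genes and of the ISG15 system moved apart in EMT6-PTR replicate 3 and in the metastasis. The mean difference of the 4 IFIT genes from the EMT6-P mean, less that of the 3 ISG15-system genes, was 0.36, -0.15 and -0.21 in EMT6-P replicates 1 to 3 on the log2 scale. It was -0.10 in EMT6-PTR replicate 1 and 0.37 in replicate 2, near the EMT6-P values. In EMT6-PTR replicate 3 it was 1.09, from 0.39 for the IFIT genes and -0.70 for the ISG15 system, and in the metastasis it was 1.83, from 1.01 and -0.82. The IFIT mean of the metastasis rests mostly on Ifit3 (2.10) and its near-copy Ifit3b (1.37), with Ifit2 at 0.51 and Ifit1 at 0.06. In EMT6-PTR replicate 3, Ifit1, Ifit3, Ifit3b and Usp18 lay inside the EMT6-P range. These values are a description of single libraries, and the 3 and 4 genes of a library are not replicates.

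In the metastasis, 4 of the 10 genes lay above all EMT6-P tumors, where 39.8% of all genes did, and 4 lay below, where 43.2% of all genes did. Ifit3 was at 50.9 CPM, 3.89-fold the EMT6-P mean and 2.33-fold the EMT6-PTR mean, and above every primary tumor. Ifit3b was at 10.4 CPM, below EMT6-PTR replicate 2 and above the other primary tumors. Their ratio to each other, Ifit3b over Ifit3, was 0.205, lower than in any primary tumor. Ifit2 (24.9 CPM) and Cmpk2 (11.9 CPM) exceeded the highest EMT6-P tumor by a small margin. Ifit1 was at 17.9 CPM, inside the EMT6-P range, so that the ratio of Ifit3 to Ifit1 in CPM was 2.83 in the metastasis against 0.583 to 0.876 in the primary tumors. Rsad2, at 13.4 CPM, was also inside that range. Isg15 (21.6 CPM), Usp18 (12.7 CPM), Herc6 (10.6 CPM) and Ifi44 (34.1 CPM) lay below all EMT6-P tumors, at 0.548, 0.570, 0.550 and 0.743 of the EMT6-P mean. With 1 metastasis there is no test. The lung markers given above were high in the same library. So were 5 neutrophil markers, at a summed 2978 CPM against 25.1 to 58.4 CPM in primary tumors. Their part in the result was not tested.

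Divided by exon length, Isg15 was the most abundant of the 10 in every primary tumor. Its level was 52.2 ± 10.8 CPM per kb in EMT6-P (SD, n = 3), followed by Usp18 (7.97 ± 1.90), Ifit3 (7.50 ± 4.28), Ifi44 (7.49 ± 1.06) and Ifit1 (6.99 ± 3.45), which did not differ beyond their spread. Next came Ifit2 at 4.56 ± 1.21 and Rsad2 at 3.22 ± 2.12 CPM per kb. Ifit3b (2.13 ± 0.976), Herc6 (2.06 ± 0.409) and Cmpk2 (2.02 ± 0.629) were the lowest and lay within each other's spread. In EMT6-PTR replicate 2 the level of Isg15 was 115 CPM per kb and that of Ifi44, second there, 23.7. In the metastasis Ifit3 (29.2 CPM per kb) and Isg15 (28.6 CPM per kb) were level.

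The receptor and ISGF3 genes had 0 of 7 past the test. Of these, Stat2 had the largest fold change, with 57.4, 36.4 and 38.2 CPM in EMT6-P and 49.3, 112 and 58.4 CPM in EMT6-PTR. Its log2 fold change was 0.73 (SE 0.35, adjusted p = 0.467), and 0.29 without EMT6-PTR replicate 2. Irf9 was at 26.6 to 31.7 CPM in EMT6-P and at 25.4, 50.4 and 20.8 CPM in EMT6-PTR, with a log2 fold change of 0.16 (SE 0.34). Stat2 and Irf9 were both highest in EMT6-PTR replicate 2, and Irf9 was lowest in replicate 3. The receptor chains and kinases varied little: the log2 fold changes were 0.00 for Ifnar1, 0.06 for Ifnar2, 0.12 for Jak1 and 0.12 for Tyk2, with standard errors of 0.11 to 0.17.

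The remaining ISG15 conjugation genes were Uba7, the activating enzyme, Ube2l6, the conjugating enzyme, and Trim25, a ligase for ubiquitin and ISG15. None of the 3 passed the test, with log2 fold changes of 0.17 (SE 0.19), 0.29 (SE 0.29) and 0.03 (SE 0.22). Each was highest of the primary tumors in EMT6-PTR replicate 2, where 16% of all genes were. In EMT6-PTR replicate 3, where Isg15 and Herc6 lay below the EMT6-P range, Uba7 and Trim25 did as well. Uba7 was at 26.1 CPM against 29.6 to 30.8 CPM in EMT6-P, and Trim25 at 61.6 CPM against 71.5 to 93.3 CPM. Ube2l6 was at 69.6 CPM there, above the 43.2 to 56.1 CPM of EMT6-P. Of the relatives of the IFIT and IFI44 genes, Ifi44l was at 12.2 to 12.8 CPM in EMT6-P and at 12.7, 23.8 and 15.3 CPM in EMT6-PTR, with a log2 fold change of 0.48 (SE 0.26, adjusted p = 0.495). Ifit1bl1 was low, at 0.283 to 1.12 CPM in EMT6-P and 0.305 to 1.34 CPM in EMT6-PTR, and Ifit1bl2, at 5 to 15 counts per library, did not pass the filter on low counts.

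Of 5 IFN regulatory factors, 0 passed the test and the median log2 fold change was 0.00. Irf7, which amplifies IFN production and is itself IFN-induced, was at 64.4, 71.6 and 37.3 CPM in EMT6-P and at 55.2, 152 and 84.6 CPM in EMT6-PTR (log2 fold change 0.75, SE 0.41, adjusted p = 0.502). The log2 fold changes of Irf3, Irf5 and Irf8 were -0.21, -0.13 and 0.12. Of 4 feedback genes 0 passed, with log2 fold changes of 0.33 for Pias1, -0.20 for Socs3, -0.12 for Socs1 and 0.05 for Ptpn2. Transcripts of the IFNs had few or no counts. Of 21 ligand genes 18 had at most 1 count in any library, 17 of them 0 in all 7, and none passed the filter on low counts. Ifnb1 had 0 to 5 counts, with 5 in EMT6-PTR replicate 2, Ifna1 had 0 to 4, and Ifng had 1 to 9, with 8 in EMT6-PTR replicate 2 and 9 in the metastasis. A count of 0 still allows up to 3 counts, by counting error alone.

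Other type I IFN-stimulated genes, 38 in all, had 0 past the test, 29 with a log2 fold change above 0 and 9 below, and a median of 0.25. Without EMT6-PTR replicate 2, 13 were above 0 and the median was -0.10. Of all genes tested 52.3% were above 0, or 51.3% without that tumor. Among the 6 primary tumors, 31 of the 38 peaked in EMT6-PTR replicate 2, where 16% of all genes did. The smallest p-values were those of Tdrd7, an antiviral Tudor-domain protein (log2 fold change 0.42, SE 0.14, adjusted p = 0.423), Samd9l (0.57, SE 0.24), Ddx58, which encodes the RNA sensor RIG-I (0.33, SE 0.16), and Trafd1 (0.63, SE 0.33). Of 10 IFN-γ-responsive genes 0 passed, 9 were above 0, and the median log2 fold change was 0.69, or 0.21 without EMT6-PTR replicate 2. All 10 were highest in that tumor among the primary tumors, where 16% of all genes were. Tgtp1 had a log2 fold change of 1.47 (SE 0.56, adjusted p = 0.432), Iigp1 of 1.20 (SE 0.57), Irgm2 of 0.94 (SE 0.49) and Gbp5 of 0.54 (SE 0.28). In the metastasis the median difference from the EMT6-P mean was 1.30 for the IFN-γ-responsive list and -0.18 for the 38 type I genes, while that of the 10 effector genes was 0.10.

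**Figure D4:**
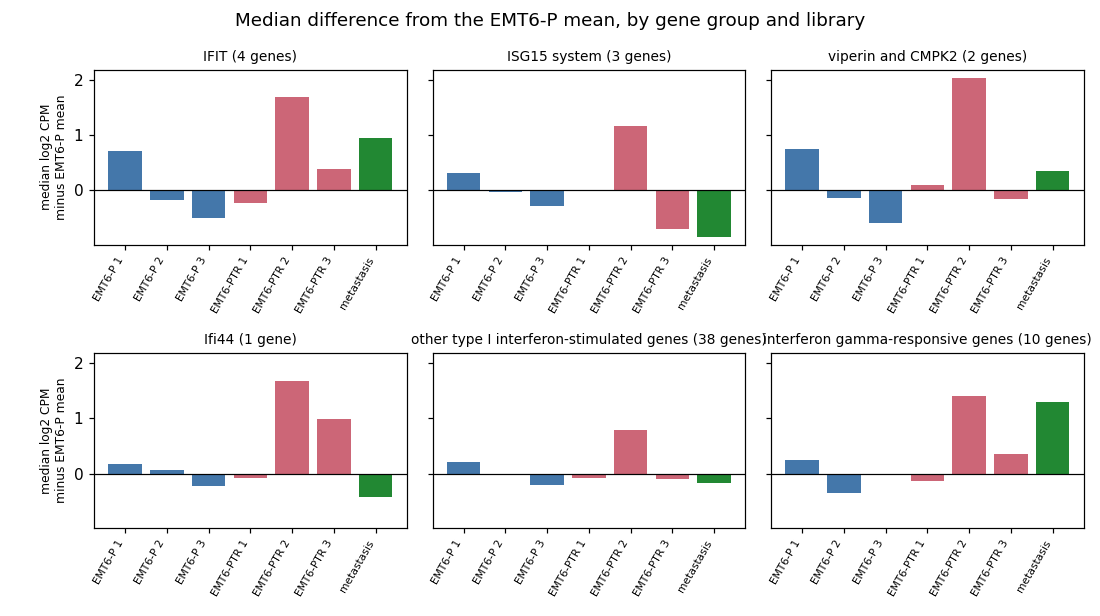
Median over each gene group of log2 CPM minus the EMT6-P mean, in the 3 EMT6-P tumors (blue), the 3 EMT6-PTR tumors (red) and the metastasis (green). Each of the 6 groups plotted is highest, among primary tumors, in EMT6-PTR replicate 2. In the metastasis the IFIT genes, Rsad2 with Cmpk2 and the IFN-γ-responsive genes are above 0 and the ISG15 system, Ifi44 and the other type I genes are below.

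The 10 genes outside the effector list whose profile over the 7 libraries lay nearest to the mean profile of the effector genes were Mocos, Rtp4, Oas2, Phf11d, Trim30a, Gm7609, Gm2666, Mx1, Rai14 and Stat2. Likeness was the root-mean-square distance of centred log2 CPM, which was 0.209 for Mocos and 0.269 for Stat2, against a median of 0.719 over all genes tested. Of these 10, 6 (Rtp4, Oas2, Phf11d, Trim30a, Mx1 and Stat2) were on the IFN lists. Mocos was at 13.3 to 18.8 CPM in EMT6-P, at 15.0, 35.0 and 17.3 CPM in EMT6-PTR and at 20.0 CPM in the metastasis. Among the effector genes, Ifit1 (0.157) and Cmpk2 (0.180) lay nearest to their own mean profile and Ifit3 (0.688) farthest.

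Markers of other cell types also differed between the libraries. Over all genes tested, 33.8% lay above all EMT6-P tumors in EMT6-PTR replicate 2 and 39.8% in replicate 3, beside which the marker counts below stand. In EMT6-PTR replicate 2, 7 of 8 T and NK cell markers lay above all EMT6-P tumors, with a summed level of 18.0 CPM against 3.92 to 6.41 CPM in EMT6-P and 6.37 and 4.69 CPM in EMT6-PTR replicates 1 and 3. All 4 B cell markers did as well, at a summed 8.24 CPM against 0.514 to 1.27 CPM in EMT6-P and 1.00 and 6.84 CPM in EMT6-PTR replicates 1 and 3. So did 3 of 5 conventional dendritic cell markers, at a summed 13.5 CPM against 5.84 to 8.73 CPM in EMT6-P and 9.56 and 11.9 CPM in EMT6-PTR replicates 1 and 3. Summed leukocyte, macrophage and monocyte markers in that tumor were 495, 1204 and 135 CPM, the first 2 inside and the last just above the EMT6-P ranges of 461 to 522, 1158 to 1391 and 71.5 to 126 CPM. Only 1 of the 4 monocyte markers, Plac8 (56.1 CPM), lay above all EMT6-P tumors there. The other 2 sums hide members that went opposite ways. Of the 4 leukocyte markers, Ptprc (92.5 CPM) lay above and Coro1a (86.6 CPM) below all EMT6-P tumors. Of the 6 macrophage markers, Adgre1 (78.0 CPM) and Cd68 (127 CPM) lay above, and Csf1r (231 CPM) and Mrc1 (46.2 CPM) below. Ncr1, an NK cell receptor, was at 0 in EMT6-P replicate 3 and EMT6-PTR replicates 1 and 3. Plasmacytoid dendritic cells are potent IFN producers. The summed level of their 5 markers was 0.701 to 5.02 CPM in EMT6-P and 3.23 and 0.703 CPM in EMT6-PTR replicates 2 and 3, with 2 of the 5 at 0 in replicate 3. Cox6a2 alone made up 0.280 to 4.09 CPM of the EMT6-P sums. In EMT6-PTR replicate 2, 3 of the 5 lay above all EMT6-P tumors: Siglech (0.557 CPM), Ccr9 (0.501 CPM) and Pacsin1 (0.279 CPM). Klk1 and Cox6a2 lay inside the EMT6-P range there. Siglech lay above all EMT6-P tumors in EMT6-PTR replicates 1 and 3 too, at 0.393 and 0.508 CPM. Pacsin1 did so in replicate 1 (0.087 CPM) but was at 0 in replicate 3. Ccr9 lay below all EMT6-P tumors in both, at 0.087 and 0.078 CPM. Levels this low rest on few counts. In EMT6-PTR replicate 1 that list stood at 37.6 CPM, of which 37.0 CPM was Cox6a2, a gene that muscle also expresses, and 4 skeletal muscle markers were at a summed 3158 CPM there against 2.85 to 563 CPM in the other primary tumors. In both EMT6-PTR replicate 2 and replicate 3, 4 of 5 fibroblast markers lay above all EMT6-P tumors, at a summed 4225 and 7523 CPM against 2617 to 3532 CPM in EMT6-P and 3235 CPM in EMT6-PTR replicate 1. In the metastasis, summed T and NK cell markers were at 29.9 CPM, B cell markers at 20.7 CPM, monocyte markers at 590 CPM and endothelial markers at 660 CPM, each above all primary tumors. The monocyte sum was mostly Chil3 (394 CPM), and Ccr2 of the same list, at 28.1 CPM, lay below its 58.0 to 105 CPM in EMT6-P. Adipocyte markers stayed at or under 2.40 CPM in all 7 libraries. The part of these cell types in the levels of the effector genes was not tested.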

How the data were processed

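The RNA-seq data cover 3 libraries of EMT6-P, 3 of EMT6-PTR and 1 of a metastasis. The authors prepared stranded libraries of polyadenylated RNA, checked reads with FastQC 0.11.5, aligned them with STAR 2.6.0a to GRCm38 (GENCODE M16) and deposited RSEM 1.3.1 estimated counts per gene, before filtering or normalization. RSEM divides reads that fit near-identical genes by estimation. Groups came from the sample labels.

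Estimated counts were rounded. Low counts were removed with filterByExpr, which left 15645 genes, upper-quartile factors were applied, and EMT6-PTR was tested against EMT6-P with edgeR 4.0.16 (quasi-likelihood, group only, threshold 0.05, Benjamini-Hochberg adjustment over all genes tested) in R 4.3.3. The standard error is the size of the log2 fold change divided by the square root of F. Log2 CPM used a prior count of 2. Symbols, positions and exon lengths came from GENCODE M21 (GRCm38), with 53360 of 53465 identifiers matched. Promoter sequences are from RefSeq (GRCm38.p6).

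The alternatives were TMM scaling, DESeq2 1.42.0, limma-voom (limma 3.58.1), no filter, at least 10 counts in every tumor, the metastasis in the fit, a replicate block, a prior count of 0.5, and leaving out each tumor. The members and lists were chosen with earlier results of these data known. Named genes are all 10 members, the receptor, ISGF3, ISG15 conjugation and related genes, up to 4 genes with the smallest p of each other list, ligands with over 3 counts, and the 10 nearest profiles. Some genes that this rule names are not reported here. Cell type markers came from written lists, and those named in the text were chosen after their values were seen. Python 3.11.15, pandas 2.3.3, Biopython 1.88 and matplotlib 3.10.9 were used.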

Additional observations from a re-analysis of the deposited data

How the results depend on the processing

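None of the 10 effector genes was called in any of the alternative fits, with a lowest adjusted p of 0.183 (Herc6 without EMT6-PTR replicate 3, edgeR). Over all genes, DESeq2 called 281 and each of the other fits 0. The prior count of 0.5 bears only on the differences per library. The median log2 fold change of the 10 genes was 0.50 to 0.71 under the other tools, filters and scalings, and -0.11 to 1.11 when 1 tumor was left out, with 3 to 10 genes above 0. It was negative only without EMT6-PTR replicate 2, and 1.11 and 1.02 without EMT6-P replicate 1 and EMT6-PTR replicate 1. With 1 tumor left out, the log2 fold changes ran from -0.12 to 1.15 for Ifit1, -0.21 to 1.11 for Ifit3b, -0.88 to 0.49 for Isg15, -0.18 to 0.51 for Usp18, -0.068 to 0.95 for Herc6, -0.19 to 1.61 for Rsad2 and -0.10 to 1.18 for Cmpk2. Each of these was negative without EMT6-PTR replicate 2, and Isg15 was also just below 0 without EMT6-P replicate 3. Isg15 was negative with limma-voom (-0.25) as well. When 1 EMT6-P tumor was left out as control, 1 to 4 genes lay above in EMT6-PTR replicate 1, 10 in replicate 2, 2 to 6 in replicate 3 (median difference -0.20 to 0.44) and 4 to 6 in the metastasis (median difference -0.24 to 0.54). The cause was not tested.

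Replicate numbers are shared by the groups, and the labels do not say whether same-numbered tumors were paired. Deviations from the group means of same-numbered tumors correlated at 0.259, 0.253 and 0.038. The first 2 values were the largest of all pairs, while EMT6-P replicate 3 correlated best with EMT6-PTR replicate 1 (0.098). With 3 tumors a group these correlations cannot decide whether the tumors were paired. With the replicate block, 0 genes were called, the median of the 10 genes was 0.56 with 9 above 0, and Isg15 was at -0.22. The 10 genes had 60 counts or more in each library, and the IFN ligands at most 9. With 3 libraries a group and 1 metastasis, differences of the size seen here could not be separated from the spread between libraries.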
